A study of Homo sapiens with 18 samples.

Results

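ADAM12, FAT3, MTNR1B, RSU1 and THSD4 are 5 of the 19103 protein-coding genes of chromosomes 1 to 22. They were chosen because an H3K27ac region in or near each of them had been found in the peak lists of 3 of 3 untreated libraries and of 0 of 3 libraries treated with valproic acid. Each locus was taken as the gene body plus 50 kb on either side, and every H3K27ac or CTCF peak that shared at least 1 bp with it was examined. Peaks of the 6 libraries of an antibody that touched were merged into regions. The loci held 46 of the 55382 H3K27ac regions and 68 of the 69985 CTCF regions. The reason for the choice held inside 4 of the 5 loci. At MTNR1B the lists had 0 H3K27ac peaks in every library, and the nearest region absent from VPA lay in the neighbouring gene FAT3.

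The samples were HEK293T cells, an immortalised line derived from human embryonic kidney, either untreated (CTRL) or given 1 mM valproic acid for 1 day (VPA). H3K27ac and CTCF were profiled by ChIP-seq in 3 replicates per treatment, which gives 12 libraries in 4 groups, and the 6 input libraries of the series were not analysed here. A single cell line was used, and the labels do not say whether the replicates were separate cultures, so p-values measure only the spread between these libraries. Promoters of 5 of 5 genes active in such cells (VIM, KRT8, KRT18, PAX2 and LIN28B) had H3K27ac peaks in all 6 libraries. ALB, PTPRC, HBB and INS, genes of other tissues, had none at the promoter.

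Read totals are unknown from peak lists. The number of fragments over each peak summit (the summit pileup) was recovered from the deposited values, and the genome-wide background coverage of 3.51 to 3.95 fragments served as relative depth. Summit height below is the log2 ratio of the pileup to this coverage. H3K27ac lists held 26299 to 29799 peaks in CTRL and 38441 to 40992 in VPA, and CTCF lists 36469 to 58782. Both CTCF replicate 1 libraries stood apart. Their heights at shared regions, those with a peak in each of the 6 libraries, correlated with those of replicates 2 and 3 at r = 0.419 to 0.619 across regions, against 0.908 to 0.993 among the libraries of replicates 2 and 3, which all share the same regions. CTCF results are therefore given with and without replicate 1.

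Acetylation of lysine 27 of histone H3 is deposited by the acetyltransferases p300 and CBP at active promoters and enhancers and removed by histone deacetylases. Valproic acid is an inhibitor of class I deacetylases. Intronic enhancers are common in long genes, and ADAM12, FAT3, RSU1 and THSD4 are long. CTCF is a zinc finger protein that binds a long DNA motif and, with cohesin, holds chromatin loops.

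ADAM12 is a membrane-anchored disintegrin and metalloprotease that sheds growth factor precursors. FAT3 is a giant cadherin with roles in planar cell polarity and neuron shape. MTNR1B encodes the melatonin receptor MT2, which couples to inhibitory G proteins. RSU1 is a leucine-rich repeat protein that binds PINCH1 in the integrin-linked kinase complex at focal adhesions. THSD4, also called ADAMTSL6, is a secreted matrix protein that promotes the assembly of fibrillin microfibrils.

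The 5 H3K27ac regions with peaks in all CTRL and no VPA libraries are shown first because the choice of genes rests on them. The 300 bases around each summit are given on the plus strand of hg38, 5′ to 3′, with CpG dinucleotides, the sites of DNA methylation, in capitals. They lie at chr10:126242474-126242773 in ADAM12, chr11:92794681-92794980 (first) and chr11:92867341-92867640 (second) in FAT3, chr10:16686838-16687137 in RSU1, and chr15:71078742-71079041 before THSD4.
ADAM12 intron: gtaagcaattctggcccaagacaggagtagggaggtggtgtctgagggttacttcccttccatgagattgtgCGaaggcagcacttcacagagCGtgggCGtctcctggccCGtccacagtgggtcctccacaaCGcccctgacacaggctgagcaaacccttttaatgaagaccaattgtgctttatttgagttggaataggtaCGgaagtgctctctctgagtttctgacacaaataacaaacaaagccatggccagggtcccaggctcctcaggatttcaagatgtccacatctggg
FAT3 intron, first: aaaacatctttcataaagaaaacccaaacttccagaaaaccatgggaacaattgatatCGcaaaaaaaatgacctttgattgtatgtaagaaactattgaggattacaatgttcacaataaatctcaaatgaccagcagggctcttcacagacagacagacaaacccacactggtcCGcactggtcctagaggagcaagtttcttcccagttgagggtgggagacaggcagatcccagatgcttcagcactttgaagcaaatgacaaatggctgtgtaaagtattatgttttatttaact
FAT3 intron, second: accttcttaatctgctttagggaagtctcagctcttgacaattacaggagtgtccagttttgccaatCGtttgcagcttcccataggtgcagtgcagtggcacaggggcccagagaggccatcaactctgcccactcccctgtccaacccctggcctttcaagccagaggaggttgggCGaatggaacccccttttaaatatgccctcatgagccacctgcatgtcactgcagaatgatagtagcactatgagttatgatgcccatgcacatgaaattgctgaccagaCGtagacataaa
RSU1 intron: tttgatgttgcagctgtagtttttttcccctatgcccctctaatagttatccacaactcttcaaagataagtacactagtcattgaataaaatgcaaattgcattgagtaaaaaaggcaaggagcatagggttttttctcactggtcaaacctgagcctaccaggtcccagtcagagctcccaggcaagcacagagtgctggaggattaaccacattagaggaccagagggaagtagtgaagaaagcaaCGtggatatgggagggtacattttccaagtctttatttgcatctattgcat
Upstream of THSD4: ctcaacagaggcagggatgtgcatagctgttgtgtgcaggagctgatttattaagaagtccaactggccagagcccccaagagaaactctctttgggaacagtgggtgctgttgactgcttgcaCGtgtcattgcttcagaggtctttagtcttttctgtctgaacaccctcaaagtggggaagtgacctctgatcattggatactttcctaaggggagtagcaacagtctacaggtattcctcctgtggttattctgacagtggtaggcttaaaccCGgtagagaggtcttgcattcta

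These windows held 1 CpG in RSU1, 2 in the first FAT3 window, 3 in the second, 2 near THSD4 and 6 in ADAM12. The median was 2, against 4 in the windows of all 77 regions of this class and 21 in those of the 18407 shared regions. Their GC content was 39.7% to 52.0%. Both strands were searched for TGANTCA (AP-1), TGTTTAC (forkhead factors), GGAATG (TEAD factors) and the core of the CTCF consensus with at most 1 mismatch, none of which contains another. None of the 5 windows held any of the 4 motifs. Windows of all 55382 H3K27ac regions held them in 7.77%, 3.07%, 12.5% and 2.30% of cases, so few matches could occur among 5.

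ADAM12 (ENSG00000148848.15, chr10:126012381-126388477, hg38, minus strand) had the most acetylated regions, 16 in all, and 15 of them lay in a stretch of its introns between 135 and 222 kb from the first base of the gene. The lists held 14, 12 and 16 H3K27ac peaks in CTRL against 11, 8 and 9 in VPA, means of 14 ± 2 and 9.33 ± 1.53 (SD, n = 3 each). Every VPA library had fewer than every CTRL library. Of 17430 protein-coding gene windows with any H3K27ac peak, 0.166% were lower in this way and 23.5% higher. The peaks covered 20.6, 23.02 and 22.8 kb in CTRL and 13.98, 13.04 and 13.96 kb in VPA.

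The ADAM12 region absent from VPA (chr10:126242259-126243677, 146 kb into the gene) had summit pileups of 45, 50 and 42 in CTRL. No VPA library had a peak. At the CTRL local background, a VPA peak would have been called from 18 or 19 fragments, so pileups below that level remain unseen. A pair of flanking regions missed the choice by 1 library. The first (chr10:126240033-126241122) had pileups of 34, 41 and 33 in CTRL against 24 in VPA replicate 1, and the second (chr10:126253125-126254177) had 25, 37 and 23 in CTRL against 23 in VPA replicate 1.

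All 6 ADAM12 regions with a peak in every library had lower summits in each VPA than in each CTRL library, and 4 of them also by fold enrichment over local background. In such bulk libraries, fewer acetylated cells and less acetylation per cell cannot be told apart. Heights are relative to background coverage, and a difference in enrichment between the libraries was not tested. Median summit pileups of the whole lists were 109, 71 and 67 in CTRL against 47, 43 and 43 in the longer VPA lists. Of all shared regions, 28.1% were lower in every VPA library. The strongest (chr10:126247206-126250718) had pileups of 227, 189 and 187 in CTRL against 151, 104 and 126 in VPA. The widest (chr10:126214763-126220507) had 141, 159 and 145 in CTRL against 82, 79 and 88 in VPA. The difference in log2 height was -0.72 in the first and -0.88 in the second, both below the median of -0.28 over all shared H3K27ac regions. Pileups fell furthest at chr10:126232891-126236627, from 85, 72 and 60 to 25, 25 and 21, a difference of -1.65, at the 0.022 percentile of all shared regions. The other 3 differed by -0.73, -0.83 and -1.14.

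Ranks within each list, by -log10 q-value, were also read for the ADAM12 regions. A higher percentile means a stronger peak of its list. The VPA lists are longer, which by itself raises the percentile of a peak that did not change, so ranks that stayed level are no sign of stability. The strongest region had a mean rank of 71.4% in both treatments, and the widest went from 66.2% to 69.7%. The region at 155 kb went from 51.3% to 24.0%. The one at 213 kb (chr10:126175224-126176522), with pileups of 52, 64 and 52 in CTRL against 41, 27 and 31 in VPA, went from 49.7% to 35.5%. At the ADAM12 start itself, the only H3K27ac peak was in CTRL replicate 3, with a pileup of 21.

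**Figure D1:**
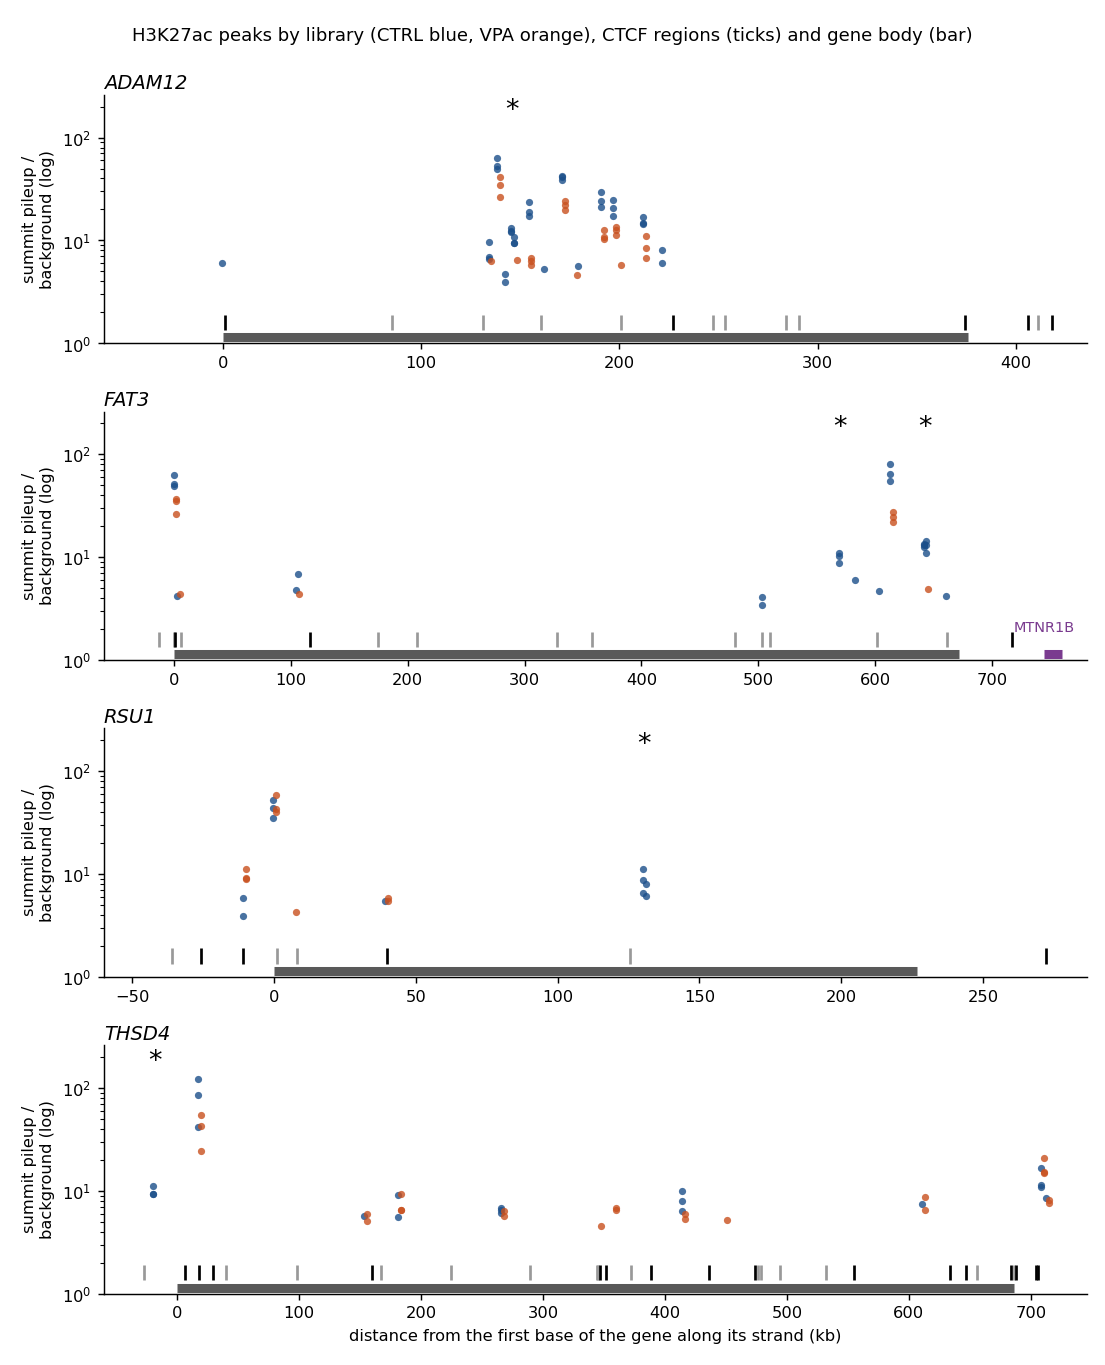
H3K27ac summit pileup divided by the background coverage of the library (log axis) against the distance from the first base of the gene in kb, with a point for each library that had a peak (CTRL blue, VPA orange). Stars mark the 5 regions with peaks in 3 CTRL and 0 VPA libraries, ticks the CTCF regions (black where all 6 libraries had a peak, grey otherwise) and bars the gene bodies, with MTNR1B in purple beside FAT3. In ADAM12 the points crowd between 135 and 222 kb, with VPA below CTRL, while THSD4 has scattered low points.

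FAT3 (ENSG00000165323.16, chr11:92224818-92896473, plus strand) had 12 H3K27ac regions, most of them at its start or in its last introns. The lists held 8, 9 and 10 peaks in CTRL against 4, 4 and 7 in VPA, means of 9 ± 1 and 5 ± 1.73 (SD, n = 3 each), and every VPA library was again lower. The covered length was 14.8, 20.3 and 18.4 kb in CTRL and 7.25, 9.92 and 10.1 kb in VPA. No region of the locus was called in more VPA than CTRL libraries, and 8 of 12 were called in fewer. The same split over all H3K27ac regions was not obtained, and the VPA lists are longer. Such counts, here and at RSU1 and THSD4 below, therefore only describe the loci.

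Both FAT3 regions absent from VPA were intronic. The one at chr11:92794524-92796062, 570 kb into the gene, had pileups of 32, 42 and 36 in CTRL, against a calling level of 13 or 14 in VPA. The one at chr11:92866899-92868277, at 643 kb, had 48, 51 and 44, against a level of 20 to 22. A region beginning 458 bp after the latter (chr11:92868735-92870628) just missed the choice, with 52, 42 and 46 in CTRL against 18 in VPA replicate 3 alone.

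Between these regions lay the widest acetylated region of the 5 loci (chr11:92837224-92847105, 9882 bp), which also covers an annotated internal start of FAT3. Its pileups were 201, 303 and 224 in CTRL against 90, 86 and 100 in VPA, a difference of -1.43 in log2 height at the 0.081 percentile of shared regions. The region over the first promoter (chr11:92223413-92227713) had 229, 186 and 179 in CTRL against 136, 105 and 128 in VPA, a difference of -0.73. The treatments overlapped at neither region by pileup, but they did at the promoter by fold enrichment. Ranks within the lists were 75.7% and 70.2% at the wide region and 64.7% and 67.8% at the promoter, in CTRL and VPA.

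MTNR1B (ENSG00000134640.3, chr11:92969651-92985066, plus strand) is the next protein-coding gene after FAT3, 73.2 kb from its end. No H3K27ac region fell within 50 kb of the gene. The nearest lay 83.2 kb before its start, with a peak in CTRL replicate 2 only, and 152 kb past its end. The second FAT3 region absent from VPA ended 101 kb before MTNR1B. The MTNR1B and FAT3 windows share 26.8 kb and, within it, 1 CTCF region, so their values are not separate observations.

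RSU1 (ENSG00000148484.18, chr10:16590611-16817463, minus strand) had 6 H3K27ac regions, and its lists held 4, 4 and 4 peaks in CTRL against 4, 4 and 3 in VPA. The near equal totals stood for different regions, with 2 called in more CTRL and 3 in more VPA libraries. The region absent from VPA (chr10:16686419-16687255, 130 kb into the gene) had pileups of 24, 42 and 31 in CTRL, against a calling level of 11 in VPA. A smaller region beside it (chr10:16685566-16685951) had 23 and 28 in CTRL replicates 2 and 3 and no peak in VPA.

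The RSU1 promoter was acetylated in all 6 libraries. Its region (chr10:16816282-16818528), shared with the divergent lncRNA ENSG00000286958, had pileups of 189, 165 and 124 in CTRL against 215, 169 and 147 in VPA. The groups overlapped, and the difference in log2 height was 0.11. A region at chr10:16827417-16828938, inside the gene body of CUBN, a receptor for vitamin B12 with intrinsic factor, had 21 and 15 in CTRL replicates 1 and 2 and 41, 36 and 33 in VPA.

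THSD4 (ENSG00000187720.15, chr15:71096952-71783383, plus strand) had 12 H3K27ac regions spread over the locus. The lists held 8, 5 and 8 peaks in CTRL against 7, 9 and 8 in VPA, means of 7 ± 1.73 and 8 ± 1 (SD, n = 3 each), and the groups overlapped. Of the regions, 3 were called in more CTRL and 7 in more VPA libraries. The region absent from VPA (chr15:71078513-71080374) lay between LRRC49 and THSD4, at -18.1 kb from the first base of THSD4. It had pileups of 34, 42 and 33 in CTRL, against a calling level of 15 or 16 in VPA.

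The main acetylated region of THSD4 (chr15:71114845-71116348) covers an internal start, 18.6 kb into the gene, and the start of the lncRNA CT62. Its pileups of 442, 159 and 298 in CTRL against 200, 168 and 89 in VPA differed by -0.98 in log2 height, but the spread was wide (SD of 0.78 and 0.60) and the groups overlapped. Near the far end, a region in NR2E3, a nuclear receptor of photoreceptors, had 60, 41 and 40 in CTRL against 76, 60 and 54 in VPA, a difference of 0.39. A region at 358 kb (chr15:71455284-71455970) had 27 and 24 in VPA replicates 2 and 3 and no peak in CTRL.

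**Figure D2:**
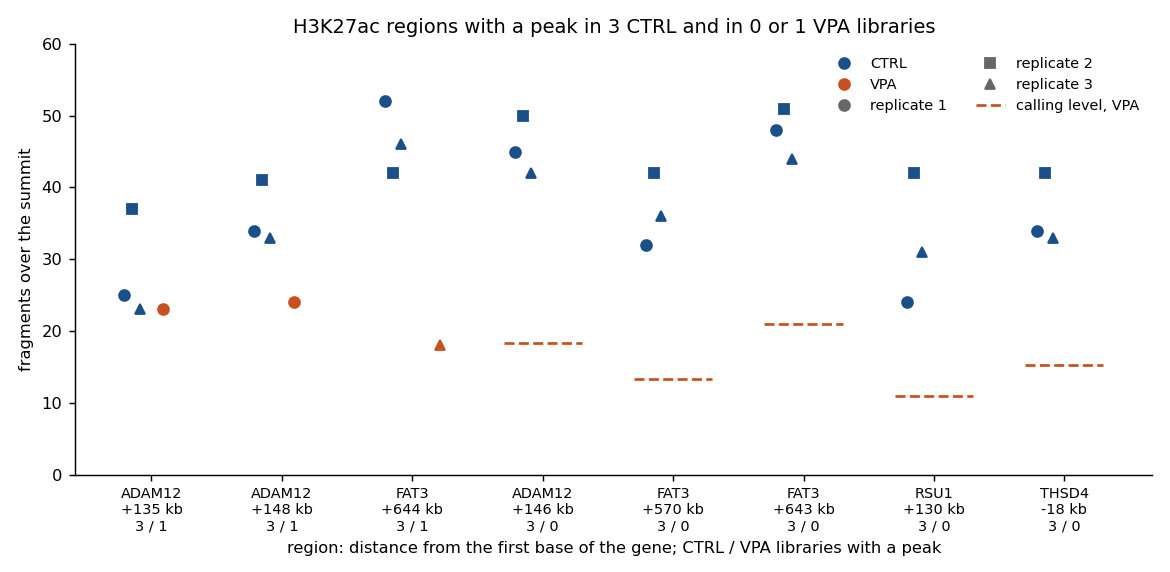
Fragments over the H3K27ac summit in each library (CTRL blue, VPA orange, symbols for replicates) at the 3 regions with 1 VPA peak and the 5 regions with none, labelled by gene and distance from its first base. Dashed lines give the mean pileup at which a VPA peak would have been called at the CTRL local background, 11.0 to 21.0 fragments, and all CTRL summits at these 5 regions lie above it, from 24 to 51. That they do follows largely from the choice of regions with a peak in every CTRL library. The VPA local background there is unknown.

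Over the 5 loci, 5 of 46 H3K27ac regions were only in CTRL, against 0.139% of all regions, and 0 of 46 were only in VPA, against 4.12% (20.0% of all windows held one). At least 1 region only in CTRL was found at 4 of the 5 windows, against 0.487% of all windows. The genes were chosen by these counts, which are given as a description. None of the 5 regions overlapped a CTCF region, and the nearest CTCF region was a median of 14.4 kb away. Their mean CTRL pileups of 32.3 to 47.7 lay above the median of 25 for the 77 regions of the class and below the median of 223 for shared regions. When all H3K27ac lists were limited to the length of the shortest, 8 regions of the loci were only in CTRL (0.688% of all regions), and the difference in mean peak number at THSD4 was then -3.67 in place of 1. Without replicate 1 of both treatments there were 9 (0.884%), of which 4 in ADAM12, 2 in FAT3, 2 in RSU1 and 1 near THSD4.

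Of the 11 shared H3K27ac regions, 8 had every VPA summit below every CTRL summit, against 28.1% of all such regions, and 0 had the reverse, against 9.92%. All 8 were in ADAM12 or FAT3, and the RSU1 region and both THSD4 regions overlapped. The median difference of the 11 was -0.83, against -0.28 over all. Centring each library on its median height left 7 lower, against 32.6% of all shared regions, and 2 higher, against 19.2%. The 2 were the RSU1 promoter and the NR2E3 region, and the ADAM12 region at 198 kb no longer separated. With the fold enrichment over local background in place of the pileup, 5 of 11 were lower, against 1.53% of all regions. The treatments then overlapped at the FAT3 promoter and at the ADAM12 regions at 172 and 198 kb. These values come from the same contrast as the choice of genes and were not tested.

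**Figure D3:**
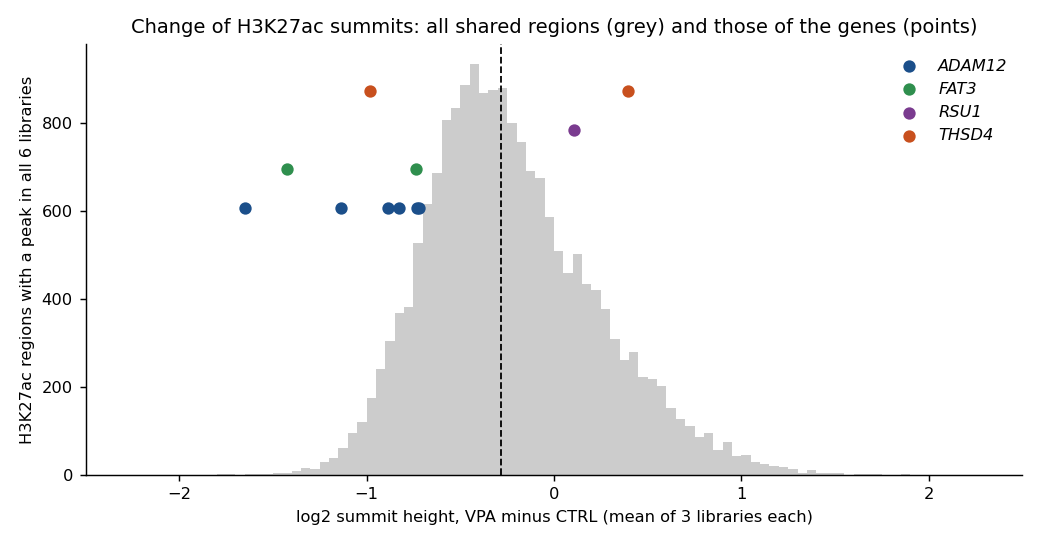
Difference in log2 H3K27ac summit height, VPA minus CTRL (means of 3 libraries), for the 18407 shared regions (grey histogram, number of regions per bin) and for the 11 in the loci (coloured points, height arbitrary). The dashed line is the median of all regions, -0.28. The ADAM12 and FAT3 points lie between -1.65 and -0.72, while RSU1 at 0.11 and a THSD4 region at 0.39 lie above the median.

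**Figure D4:**
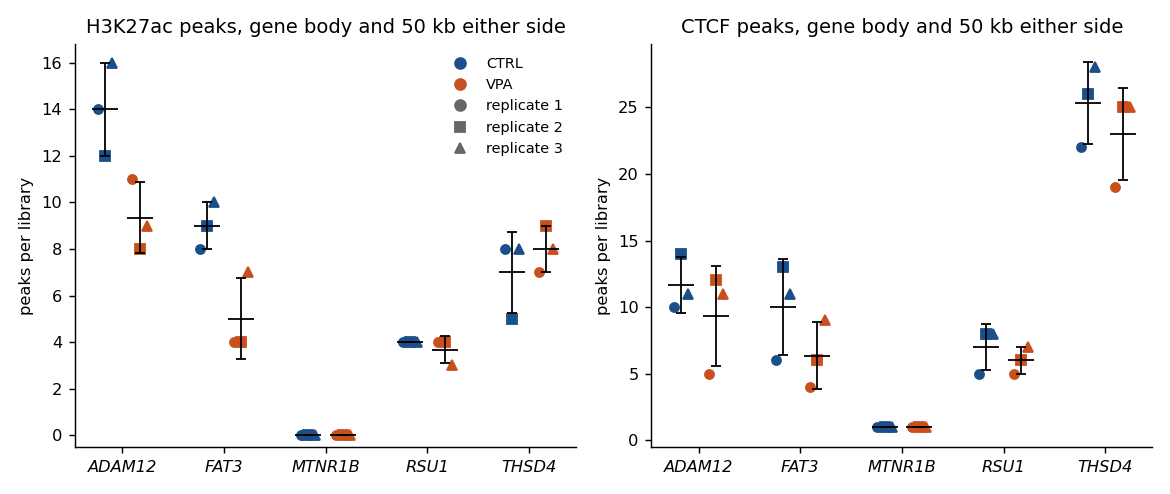
Number of H3K27ac (left) and CTCF (right) peaks per library at each locus, with the mean and SD of 3 libraries in black, CTRL in blue and VPA in orange. H3K27ac counts separate at ADAM12 and FAT3 only, and CTCF counts overlap at every locus.

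Promoters of the genes differed in sequence and in acetylation. RefSeq (GRCh38.p14) gave 6 promoters for 4 of the genes, and FAT3 was not matched. Shown are the 250 bases before the start, on the strand of the gene, for a CpG-rich promoter with almost no H3K27ac (ADAM12, chr10:126388478-126388727), one acetylated in all libraries (RSU1, chr10:16817425-16817674), and the first (chr15:71096644-71096893) and the internal (chr15:71115221-71115470) promoter of THSD4. CpG dinucleotides are in capitals.
ADAM12 promoter: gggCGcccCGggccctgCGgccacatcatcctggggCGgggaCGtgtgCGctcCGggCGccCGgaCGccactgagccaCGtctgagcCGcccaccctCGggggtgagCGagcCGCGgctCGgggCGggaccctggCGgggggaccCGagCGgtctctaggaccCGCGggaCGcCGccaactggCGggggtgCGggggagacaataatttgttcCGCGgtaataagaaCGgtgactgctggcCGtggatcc
RSU1 promoter: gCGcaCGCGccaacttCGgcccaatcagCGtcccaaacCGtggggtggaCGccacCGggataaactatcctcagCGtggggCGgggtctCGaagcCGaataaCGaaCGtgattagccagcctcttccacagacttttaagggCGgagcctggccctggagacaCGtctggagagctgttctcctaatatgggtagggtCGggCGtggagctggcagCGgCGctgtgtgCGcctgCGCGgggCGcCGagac
THSD4 first promoter: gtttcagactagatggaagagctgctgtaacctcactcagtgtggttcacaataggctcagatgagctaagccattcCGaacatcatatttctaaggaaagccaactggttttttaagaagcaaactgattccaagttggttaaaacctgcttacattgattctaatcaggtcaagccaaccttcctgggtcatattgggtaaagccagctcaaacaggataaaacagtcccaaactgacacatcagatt
THSD4 internal promoter: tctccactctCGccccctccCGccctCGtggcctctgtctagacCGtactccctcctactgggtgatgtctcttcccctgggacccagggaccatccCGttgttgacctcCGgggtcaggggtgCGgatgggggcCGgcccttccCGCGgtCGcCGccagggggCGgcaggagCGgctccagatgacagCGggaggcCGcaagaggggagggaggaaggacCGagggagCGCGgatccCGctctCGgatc

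The ADAM12 promoter held 31 CpG dinucleotides, the RSU1 promoter 25 and the internal THSD4 promoter 21, against a median of 11 over all promoters of the same length. Acetylation was called at RSU1 and at the internal THSD4 promoter in all 6 libraries. At ADAM12 it was called in 1 library. The first THSD4 promoter held 1 CpG and no H3K27ac peak in any library. The MTNR1B promoter, with 12 CpG and likewise no peak, was near the median. In the windows of the 11 shared H3K27ac regions, GGAATG was found in 5 (45.5%), against 10.9% of all shared regions, and the other 3 motifs in none. Over all 46 regions of the loci GGAATG was found in 10 (21.7%), against 12.5% of all regions. The shared sets are unlike, since 18.2% of the 11 lay within 1 kb of a protein-coding start, against 60.4% of all. The difference in motif share was not tested.

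CTCF was the measure that the choice of genes had not used. The question was whether CTCF binding at these genes also differed after VPA. The lists held 10, 14 and 11 CTCF peaks at ADAM12 in CTRL against 5, 12 and 11 in VPA (two-sided exact permutation test, p = 0.6). At FAT3 they held 6, 13 and 11 in CTRL against 4, 6 and 9 in VPA (exact p = 0.3). RSU1 had 5, 8 and 8 in CTRL against 5, 6 and 7 in VPA (exact p = 0.6). The groups overlapped at each of these genes, and replicate 1 had the lowest count of its treatment.

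THSD4 had the most CTCF peaks, 22, 26 and 28 in CTRL against 19, 25 and 25 in VPA (exact p = 0.5), and MTNR1B had 1 in every library (exact p = 1.0). Over all 18814 windows with a CTCF peak the adjusted p-value was 1.0 for each of the 5 genes. The smallest exact p that 3 against 3 libraries allow is 0.1, so this test could call no window, and it called 0.0% of them. Lower counts in every VPA library were found in 1.14% of all windows, higher counts in 0.356%, and neither at any of the 5. Without replicate 1 the mean difference was -1 at ADAM12, -4.5 at FAT3, -1.5 at RSU1 and -2 at THSD4 (exact p = 0.333 to 1.0, where 0.333 is the smallest that 2 against 2 libraries allow). Every remaining VPA library was then below every remaining CTRL library at FAT3, RSU1 and THSD4, and at ADAM12 the groups still overlapped. The share of all windows that separate in this setting was not obtained, so this separation has no background and shows no CTCF loss particular to these genes.

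Of the 68 CTCF regions, 28 had a peak in all 6 libraries, 0 were only in CTRL (0.326% of all regions) and 0 only in VPA (0.186%). Of all gene windows, 2.36% held a CTCF region only in CTRL and 1.41% one only in VPA. Summit heights at the 28 differed by -1.11 to 0.47 on the log2 scale, with SE of 0.59 to 1.28, and were compared with limma over 27794 regions. No region passed an adjusted p of 0.05 (0.0% of all), and at an unadjusted p under 0.05 there were 2 of 27794, none of them here. In 0 of the 28 did the groups separate, against 1.85% lower and 0.284% higher of all. Differences of the size seen here were not detectable with these errors.

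Without replicate 1 the heights at the 28 regions differed by -1.99 to 0.40 with SE of 0.13 to 1.06, and the smallest adjusted p by limma was 0.349 (0 of 27794 called, 2827 at an unadjusted p under 0.05). That value belonged to a region in CUBN (chr10:16842772-16844007), with pileups of 28, 53 and 56 in CTRL against 38, 34 and 37 in VPA. Regions only in CTRL then numbered 3 (2.92% of all regions). They were weak, with pileups of 42 and 48 near the RSU1 start and of 28 and 29, and 35 and 38, in FAT3 introns.

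The strongest CTCF region covered the internal THSD4 promoter (chr15:71114742-71116086), with pileups of 3013, 1451 and 1202 in CTRL against 4944, 1476 and 1224 in VPA. Its limma difference was 0.29, within its error. The ADAM12 start followed (chr10:126386729-126387672), with 1444, 741 and 631 in CTRL against 1988, 793 and 636 in VPA, although H3K27ac was called there in 1 library only. Replicate 1 had the highest summit of its treatment at both of these and in all at 6 of the 28 regions. It had the lowest in both treatments at 16, as at chr10:126160505-126161880 in ADAM12, with 37, 583 and 587 in CTRL against 59, 557 and 547 in VPA. The shares over all shared regions were not obtained, so this split cannot be called particular to these loci.

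Besides the low replicate 1 libraries, some regions were low in VPA replicate 2. In an intron of THSD4 (chr15:71442984-71444374) the pileups were 50, 657 and 605 in CTRL against 75, 102 and 546 in VPA. The region shared by FAT3 and MTNR1B (chr11:92941540-92943005) had 28, 324 and 310 in CTRL against 43, 91 and 275 in VPA. Within replicate 2, 7 of the 28 regions were lower in VPA by more than 1 on the log2 scale, against 5.93% of all regions. Within replicate 3 there were 0, against 0.22%. Within replicate 1 there were 6 of 28, against 21.7% of all regions, and 2 were higher by more than 1, against 3.24%. Each of these comparisons rests on 1 library per treatment and on the pairing of replicate numbers, which is an assumption. They were not tested and only describe these libraries.

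**Figure D5:**
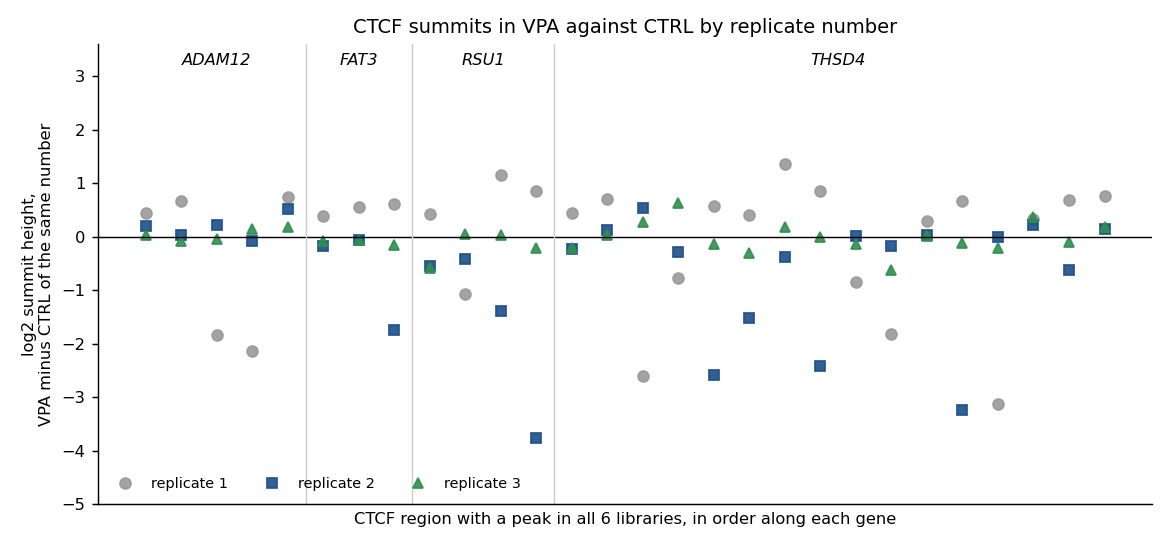
Difference in log2 CTCF summit height between VPA and CTRL libraries of the same replicate number at the 28 shared regions, ordered along each gene (the region shared with MTNR1B is drawn under FAT3). Replicate 3 stays between -0.62 and 0.62, while replicates 1 and 2 reach -3.12 and -3.77 at different regions.

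The CTCF core motif was found within the 300 bases around the summit of 18 of the 68 CTCF regions (26.5%), against 25.9% of all regions, and of 10 of the 28 shared ones (35.7%), against 37.6%. For FAT3, RSU1 and THSD4, the site of the strongest region with a match is shown with its flanks on the plus strand of hg38, the 12 bases of the core in capitals, at chr11:92340987-92341026, chr10:16828308-16828347 and chr15:71115360-71115399. All 3 matched the reverse complement of the consensus as the study supplement writes it, so the capitals are that reverse complement. The orientation of the sites with respect to loops was not examined.
FAT3 CTCF site: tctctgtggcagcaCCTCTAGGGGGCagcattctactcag
RSU1 CTCF site: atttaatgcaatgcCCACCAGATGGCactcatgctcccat
THSD4 CTCF site: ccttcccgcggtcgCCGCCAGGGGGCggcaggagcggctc

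The RSU1 site matched the consensus without a mismatch and the others with 1. The RSU1 site lies inside the CUBN region where H3K27ac was called in 3 VPA and 2 CTRL libraries. Its CTCF pileups were 73, 346 and 299 in CTRL against 35, 242 and 306 in VPA. The FAT3 site had 35, 544 and 461 in CTRL against 52, 490 and 438 in VPA, and no H3K27ac region overlapped it. The THSD4 site is the one in the internal promoter shown above.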

How the data were processed

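H3K27ac and CTCF ChIP-seq of HEK293T cells was analysed in 12 libraries, 3 for each antibody and treatment, grouped by the sample labels. Chromatin had been sonicated to 200 to 600 bp, the reads had been aligned by the authors to hg38 with Bowtie2, and peaks had been called per library with MACS3 (3.0.0a7, per the submitters' processing notes) at a q-value of 0.05. For each peak the deposited lists give the fold enrichment (a ratio) at the summit over local background, the −log10 p-value, the −log10 q-value and a score derived from it. Read totals are unknown.

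Summit pileup and local background were recovered by solving the fold, (pileup + 1)/(background + 1), and the Poisson p-value together. The pileups were whole within 0.05 in 100.0% of peaks (99.997% in one CTCF list). The lowest local background of a list was taken as its background coverage. Regions were unions of peaks sharing 1 bp, and genes were those of GENCODE release 44. A promoter peak lay within 500 bp of a start. The calling level is the smallest pileup that passes the lowest p-value of a VPA list at the local background of the CTRL libraries, scaled by coverage.

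CTCF peak numbers were compared by a two-sided exact permutation test over 20 assignments, adjusted by Benjamini-Hochberg over all windows. CTCF heights were compared with limma 3.58.1 (R 4.3.3), adjusted over all regions, with no pseudocount. Both were run on simulated data with independent noise, as a check of the code only. For limma the simulated noise was smaller than the spread at the member loci, so the simulation does not show how the test performs on these libraries. H3K27ac differences were not tested, since they chose the genes. Deviations from the group means correlated between libraries of the same replicate number at 0.824, 0.482 and 0.592 for H3K27ac and at 0.791, 0.543 and 0.852 for CTCF. Libraries of different numbers reached 0.602 and 0.848. By the rule that every pair exceed 0.1, the numbers were treated as pairs in the replicate block and in the comparisons within a number. Some pairs of different numbers correlated above some of the same number, so the correlations do not single out these pairs. The pairing is therefore an assumption, as the labels do not state a shared batch.

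The members, gene lists, motifs and tests were chosen with earlier results of these data known. The genes named are the 5 members and genes with a promoter peak in their windows. Up to 5 other genes with the most H3K27ac regions only in CTRL were added. Up to 4 examples of each related family are also named, not always those with the largest change in mean peak number. Further genes were named as neighbours of a described region. One further marker gene of another tissue was examined and is not reported here. The alternatives were −log10 q-values of at least 3 and 10, equal list lengths, merging of peaks only where they shared at least 100 bp with at least 50% of the region or of the peak covered, the gene body alone, 100 kb either side, other height scales, the replicate block and leaving out each library. Leaving out replicate 1, and every alternative for H3K27ac heights, were added after seeing the data. Python 3.11.15, numpy 2.4.6, pandas 2.3.3, scipy 1.17.1 and matplotlib 3.10.9 were used.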

Additional observations from a re-analysis of the deposited data

How the results depend on the processing

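At the 5 genes the difference in CTCF peak number kept its direction or was 0 in 13 alternatives each, with exact p of 0.2 to 1.0, a test that could make no call at these sample sizes. By limma, 0 CTCF regions were called in 12 alternatives. The replicate block changed no call, with exact p of 0.25 at FAT3 and THSD4, 0.5 at ADAM12 and RSU1 and 1.0 at MTNR1B (0.25 is the smallest it allows), and 681 regions at an unadjusted p under 0.05 by limma in place of 2, of which 0 passed adjustment. Median centring moved the median CTCF difference over all regions from -0.02 to 0.26.

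At equal list lengths the difference in mean H3K27ac peak number was -7.67 at ADAM12, -1.33 at RSU1 and -3.67 at THSD4, and 8 regions were only in CTRL. With the gene body alone it was -1 at RSU1, and with 100 kb either side -1.33 at MTNR1B, whose window then reached FAT3 regions. Leaving out single libraries gave 5 to 7 H3K27ac regions only in CTRL and 0 to 1 only in VPA, the latter without VPA replicate 1. CTCF regions only in CTRL ranged from 0 to 3 (3 without CTRL replicate 1, at RSU1 and FAT3, and 1 without VPA replicate 2, at THSD4) and only in VPA from 0 to 1 (without VPA replicate 3, at THSD4). With a library left out, the condition for such a region is easier to meet. The shares of all regions were not obtained with single libraries left out, so those counts only describe the loci. Without replicate 1 of both treatments there were 9 H3K27ac regions only in CTRL (0.884% of all regions), 1 only in VPA (13.0%) and 3 CTCF regions only in CTRL (2.92%). Of the shared H3K27ac regions, 5 were lower in VPA by fold enrichment and 7 to 9 in the other alternatives, in which 28.5% to 59.3% of all shared regions were lower (9 of 12 against 59.3% without VPA replicate 1 and against 55.7% without replicate 1). The causes were not tested. Peaks below the calling level cannot be seen in any list, and heights exist only where a peak was called.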

Other observations

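Relatives of the 5 genes were examined in the same way. Of 6 FAT and Dachsous cadherin genes, 0 had an H3K27ac region only in CTRL, and 1 had higher peak numbers in every VPA than in every CTRL library, against 23.5% of all windows. It was FAT2, with 0, 1 and 1 peaks in CTRL against 2, 2 and 2 in VPA. Of 7 other disintegrin metalloprotease genes, 1 was higher in this way, ADAM15, with 8, 10 and 10 in CTRL against 14, 15 and 14 in VPA, a gene with roles in cell adhesion. Among 12 genes of fibrillin microfibrils and ADAMTS-like proteins, 2 were higher. LTBP4, which binds latent TGF-beta, had 7, 12 and 10 in CTRL against 13, 18 and 16 in VPA, and ADAMTSL1 had 4, 5 and 6 in CTRL against 7, 12 and 7 in VPA. ADAMTSL5 had the largest change of this list, with 4, 9 and 8 in CTRL against 8, 16 and 16 in VPA, but its groups overlapped. In the integrin-linked kinase, PINCH and parvin complex, 0 of 6 genes separated in either direction. ILK itself had 4, 5 and 4 in CTRL against 4, 5 and 5 in VPA, and PARVB, with the largest change, had 4, 4 and 3 against 4, 7 and 5. The other melatonin receptor gene, MTNR1A, had 1, 1 and 1 in CTRL against 1, 2 and 1 in VPA. No gene of these lists was lower in every VPA library, against 0.166% of all windows. These comparisons use the H3K27ac contrast that chose the 5 genes and were not tested.

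After FAT3, the windows with the most H3K27ac regions only in CTRL were those of NOS1AP, an adaptor of neuronal nitric oxide synthase, EBF2, a transcription factor of brown fat and neurons, and BACH2, a repressor in B cells, with 2 each. NOS1AP had 7, 9 and 9 H3K27ac peaks in CTRL against 9, 6 and 8 in VPA. EBF2 had 5, 4 and 5 in CTRL against 2, 3 and 3 in VPA, so its groups did not overlap. BACH2 had 7, 8 and 8 in CTRL against 6, 8 and 7 in VPA. LRRC49 had 1, the region between it and THSD4, and TRIM9, a ubiquitin ligase of neurons, had 1 beside 1 only in VPA.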
